A study of Mus musculus with 12 samples.

Results

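Intraflagellar transport and BBSome genes were followed in ribosome profiling of brain and spinal cord from mouse embryos with spinal muscular atrophy (SMA) and from control embryos. The 33 genes were taken by Ensembl identifier from a list drawn up by function, and 16 of them were in the count table of 10481 genes. These were 8 of 13 listed genes of the IFT-B complex (Ift20, Ift46, Ift52, Ift57, Ift74, Ift81, Cluap1 and Hspb11), 3 of 5 of the IFT-A complex (Ift122, Ift140 and Wdr35), 2 of 4 motor genes (Kif3a and Kifap3), and 3 of 8 genes of the BBSome and its recruiting GTPase (Bbs9, Ttc8 and Arl6). The other 17 genes (Ift27, Ift80, Ift88, Ift172, Traf3ip1, Wdr19, Ttc21b, Dync2h1, Kif3b, Kif7, Bbs1, Bbs2, Bbs4, Bbs5, Bbs7, Arl13b and Inpp5e) were not analysed here, so no gene of the ciliary tip and membrane group (0 of 3) has a value. The table had been filtered by the authors on footprint level, and all 16 genes were tested.

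Intraflagellar transport moves cargo along the microtubules of the cilium, a thin extension of the cell surface. IFT-B trains are carried to the tip by heterotrimeric kinesin-2, IFT-A works with dynein-2 on the way back, and the BBSome, recruited to membranes by the GTPase Arl6, links membrane proteins to the trains. In the embryonic neural tube, neural progenitors and young neurons carry a single primary cilium, which receives Hedgehog signals, and loss of many of these genes causes ciliopathies.

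Embryos of the Taiwanese line were collected at embryonic day 14.5. Control embryos were Smn+/-; SMN2tg/0 and SMA embryos were Smn-/-; SMN2tg/0, so that both genotypes lacked at least 1 mouse Smn allele and carried the human SMN2 transgene on 1 chromosome. Whole brain or spinal cord gave 3 libraries for each of the 4 groups, 12 in all, and the p-values measure the spread between these libraries. Totals ran from 3683842 to 9117017 counts in brain and from 5162190 to 12793955 counts in spinal cord, lower in all 3 SMA than in all 3 control spinal cord libraries. Ribosome occupancy is given here as footprints that were not divided by mRNA, and in whole tissue fewer cells of a type cannot be told apart from fewer footprints in each cell. Control spinal cord library 1 stood apart. It held 274 CPM (counts per 1000000 counts of the library, scaled with TMM factors) over 4 of 10 listed genes of dividing cells (Top2a, Cdk1, Kif11 and Aurkb) against 54.96 to 97.0 in the other spinal cord libraries. The tissue labels matched Hoxc8 and Hoxc6, genes of the trunk spinal cord, which summed to 131 to 211 CPM in spinal cord and 0.420 to 1.46 in brain.

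Per kilobase of all exons, Kif3a stood above every gene of the complexes it carries. Kifap3 ranked 2, next under Kif3a, in SMA brain and in both spinal cord groups, and 3, under Ift46, in control brain. Kif3a, a motor subunit of kinesin-2, was first of the 16 genes in all 4 groups. In control brain its level, in normalized CPM for each kilobase of gene length, was 126, 124 and 135 in libraries 1, 2 and 3 (128 ± 5.74, SD, n = 3), higher than 95.5% of the table. Control spinal cord gave 131, 152 and 151 (144.8 ± 12.1), SMA brain 129, 126 and 148 (134 ± 11.7) and SMA spinal cord 143, 166 and 153 (154 ± 11.5). No library of any other of the 16 genes reached a library of Kif3a. Kifap3, the subunit that joins the kinesin-2 motors to cargo, averaged 34.0 in control brain and 44.0 in control spinal cord on the same scale. Within 1 motor complex the listed subunits thus differed 3.78-fold in control brain, although the length used is that of all exons and not of the coding sequence.

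Per kilobase of all exons, which is not the coding length, the 8 IFT-B genes spread more widely than the 3 of IFT-A and the 3 of the BBSome with Arl6. A range tends to grow with the number of genes, so a narrower spread of the smaller groups is not shown. In control brain, levels of the 8 IFT-B genes ran from 9.04 for Hspb11 to 36.8 for Ift46, a 4.07-fold range with a median of 16.04. Ift46, Ift20 and Cluap1, all parts of IFT-B, were the 3 highest of that group in each tissue. The 3 IFT-A genes lay between 7.86 and 10.7, a 1.37-fold range with a median of 9.51, and Bbs9, Ttc8 and Arl6 lay between 10.4 and 13.7, with a median of 11.9. All 16 genes had a median of 13.0 against 15.0 for the whole table. The lowest gene in control brain was Ift122, an IFT-A subunit, at 8.47, 8.21 and 6.90 (7.86 ± 0.839), and in control spinal cord Ift140, another, at 8.98, 6.48 and 8.18 (7.88 ± 1.27).

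On this scale, neighbours in the order of the 16 genes were apart at the top in control spinal cord and only in places in control brain. The scale divides by the length of all exons, so libraries that do not overlap do not settle an order per coding base. Levels per coding base were not computed. In control spinal cord, Kif3a, Kifap3, Ift20, Ift46 and Cluap1 followed each other without overlap between the libraries of neighbours. From Hspb11 down to Ift140 in that tissue, the libraries of every pair of neighbours overlapped. In control brain Ift46 (36.8 ± 2.55) and Kifap3 (34.0 ± 1.47) overlapped, as did Ift20 and Cluap1, and each neighbouring pair from Ift57 down to Hspb11. The remaining neighbours there did not overlap, namely Kif3a over Ift46, Kifap3 over Ift20, Cluap1 over Ift74, Ift74 over Ift57 and Hspb11 over Ift122. Ift46 ranked 2 in control brain and 4 in control spinal cord, where its level was 30.9 ± 0.477.

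**Figure D1:**
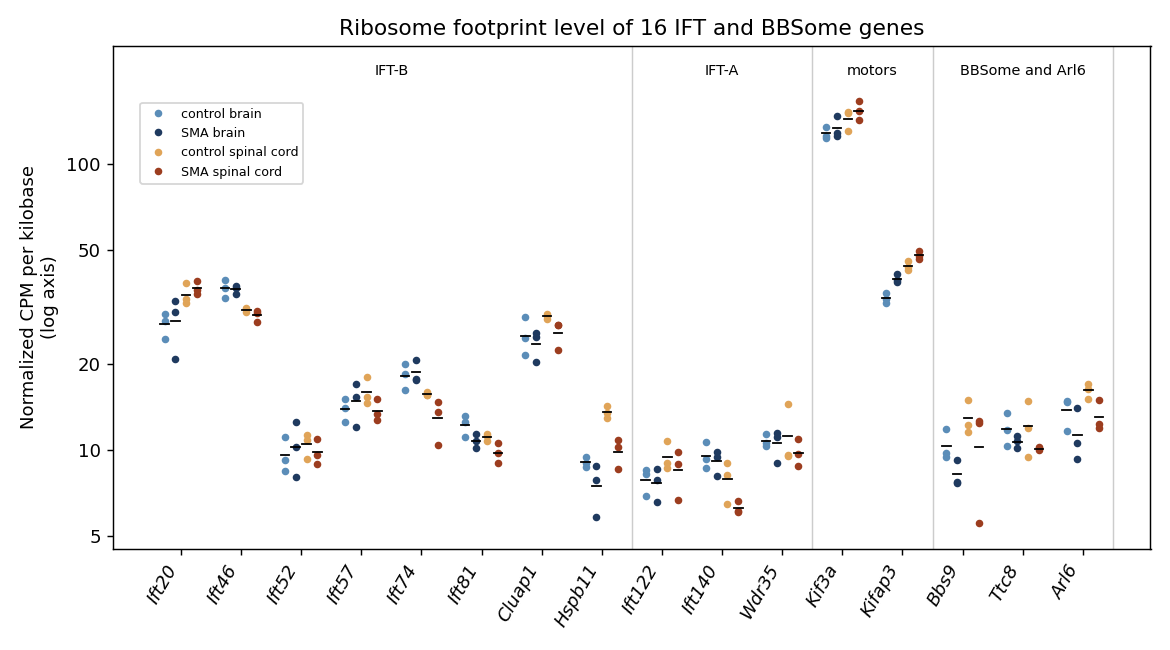
Level of each of the 16 genes on a log axis, in normalized CPM per kilobase of all exons, for the 4 groups. Points are libraries and short lines are means of 3 libraries. Kif3a lies above all other genes in every group, and most IFT-A, Bbs9, Ttc8 and Arl6 points lie between 5 and 20.

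The sequence upstream of the gene start is shown for the 4 genes that passed the thresholds below (Hspb11, Ift140, Arl6 and Bbs9) and for Ift57, which held both motifs searched. RFX transcription factors are known to bind an X-box in promoters of many ciliary genes, so the letters GTTGCC and the full X-box (an inverted repeat that can begin with the same letters, so that the 2 motifs overlap) were searched on both strands of windows from 250 bases before to 50 bases after the start. RefSeq windows (GRCm38.p6) were at hand for 14 of the 16 genes, 15 windows in all. GTTGCC was in 4 of the 15 windows (26.7%), those of Ift57, Ift140, Kif3a and Wdr35, against 12.5% of 32851 windows of all genes. The full X-box, as written above, was in 1 of 15 (6.67%), that of Ift57, against 1.29% of all windows. Over the windows of all listed genes, in the table or not, the shares were 40.6% and 12.5% of 32. Each sequence runs 5′ to 3′ on the strand of its gene and stops before the first annotated base of the gene. Capitals mark matches, which on the reverse strand of the Ift140 window read as GGCAAC. The windows are Hspb11 at chr4:107253442-107253592 (plus strand), Ift140 at chr17:25015836-25016082 (plus), Arl6 at chr16:59639410-59639659 (minus), Bbs9 at chr9:22475465-22475558 (plus) and Ift57 at chr16:49699044-49699293 (plus).
Hspb11: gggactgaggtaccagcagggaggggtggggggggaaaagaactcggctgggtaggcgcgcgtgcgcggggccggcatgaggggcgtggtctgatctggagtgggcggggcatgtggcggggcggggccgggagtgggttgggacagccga
Ift140: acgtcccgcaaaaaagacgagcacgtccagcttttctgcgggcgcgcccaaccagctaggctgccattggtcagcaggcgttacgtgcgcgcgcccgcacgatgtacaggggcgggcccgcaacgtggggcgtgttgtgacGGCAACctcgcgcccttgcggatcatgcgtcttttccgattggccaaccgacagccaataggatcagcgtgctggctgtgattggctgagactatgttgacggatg
Arl6: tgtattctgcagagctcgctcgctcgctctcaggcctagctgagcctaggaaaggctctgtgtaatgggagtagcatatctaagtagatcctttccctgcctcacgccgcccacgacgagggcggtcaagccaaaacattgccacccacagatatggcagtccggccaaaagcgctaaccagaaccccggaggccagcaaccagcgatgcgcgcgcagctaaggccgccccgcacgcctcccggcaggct
Bbs9: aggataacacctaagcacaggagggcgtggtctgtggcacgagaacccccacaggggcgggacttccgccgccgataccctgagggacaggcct
Ift57: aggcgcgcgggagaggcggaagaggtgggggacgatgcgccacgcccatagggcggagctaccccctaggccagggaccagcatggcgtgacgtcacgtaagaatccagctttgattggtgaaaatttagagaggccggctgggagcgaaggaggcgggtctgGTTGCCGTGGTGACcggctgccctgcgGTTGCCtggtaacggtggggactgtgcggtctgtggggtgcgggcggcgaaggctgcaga
The Ift57 window held the full X-box as searched from position -87 and GTTGCC again from -60, counted from the start. After the match at -60 the letters run on as tggtaac, with a spacing between GTTGCC and GGTAAC that the searched form does not cover. The Hspb11, Arl6 and Bbs9 windows held no match, which says only that these letters were not in those windows.

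In spinal cord, 13 of the 16 genes had a lower ribosome occupancy in SMA than in control libraries, with a median log2 fold change of -0.21 (all genes, -0.01, of which 51.1% were lower). Hspb11, Ift140 and Arl6 were the 3 genes past the pathway thresholds of the study and all 3 were lower. A gene passes these when its log2 fold change is 0.3 or more in size and its p, before adjustment, is under 0.05. These thresholds called 4.19% of all genes, and called 2.14% of all genes as lower. At a log2 fold change of at least 0.5, which the study used for its own gene counts, 103 genes passed here, 67 of them lower. The study reported more genes in this tissue, so its count was not reproduced. No gene of the table had an adjusted p below 0.05 with edgeR's quasi-likelihood test, and the smallest adjusted p among the 16 genes was 0.684. At an unadjusted p below 0.05 the same 3 genes were counted, against 6.99% of all genes, and DESeq2 passed 2 of them by the thresholds, Hspb11 and Ift140. Ift20, Kif3a and Kifap3 were the genes with a positive value.

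Hspb11 (ENSMUSG00000063172, RefSeq position in GRCm38.p6 chr4:107253593-107284497), also known as Ift25, is an IFT-B subunit that trains need to export Hedgehog pathway proteins rather than to build the cilium. Its normalized CPM in control spinal cord libraries 1, 2 and 3 was 27.6, 28.4 and 29.8 (28.6 ± 1.13, SD, n = 3). In SMA spinal cord it was 22.6, 17.9 and 21.2 (20.6 ± 2.42). Every SMA library lay under every control library. The log2 fold change was -0.47 (SE 0.13, edgeR adjusted p = 0.684) and ran from -0.54 to -0.38 when any library was left out. The raw counts behind it were 354, 297 and 310 in control and 181, 91 and 129 in SMA libraries.

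Arl6 (ENSMUSG00000022722, chr16:59612949-59639409), the GTPase that brings the BBSome to membranes, gave 36.7, 32.2 and 34.8 CPM in control (34.5 ± 2.25) and 31.8, 25.4 and 26.0 in SMA spinal cord (27.7 ± 3.52). The highest SMA library was just under the lowest control library. Its log2 fold change was -0.32 (SE 0.13, edgeR adjusted p = 0.684), and leaving out any single library other than SMA library 1 ended the call (-0.36 to -0.26). The text of the study names Arl6, Ift140 and Hspb11 (as Ift25) among dysregulated genes, so the values of all 3 here are not independent evidence.

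Ift140 (ENSMUSG00000024169, chr17:25016083-25099499), a core subunit of IFT-A, gave 76.8, 55.01 and 69.1 CPM in control (67.0 ± 11.03) and 55.9, 51.2 and 51.0 in SMA spinal cord (52.7 ± 2.78). Control library 2 fell below the highest SMA library, so the groups overlapped. The log2 fold change was -0.34 (SE 0.13, edgeR adjusted p = 0.684), a call which ended when 1 of 4 libraries was left out, namely control library 1 with its high level of dividing cell genes (-0.23), control library 3 (-0.32), SMA library 2 (-0.33) or SMA library 3 (-0.32). The part of that library's composition in the value was not tested.

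The remaining genes went by role as follows. All 7 IFT-B genes other than Ift20 (log2 fold change 0.06) had negative values, from -0.07 for Ift46 to -0.47 for Hspb11, with a group median of -0.20. Ift74 (-0.29, SE 0.14) and Ift81 (-0.20, SE 0.09), partners that bind tubulin as IFT-B cargo, and Cluap1 (-0.20, SE 0.10) did not overlap between genotypes but missed the thresholds. IFT-A had a median of -0.21, with Wdr35 at -0.21 (SE 0.19) and Ift122 at -0.17 (SE 0.16). Bbs9, Ttc8 and Arl6 had a median of -0.32. Bbs9, a BBSome subunit, gave 96.0, 77.5 and 72.8 CPM in control and 79.8, 35.1 and 78.1 in SMA spinal cord. Its log2 fold change of -0.35 (SE 0.29) became -0.06 without SMA library 2, which was far below the other SMA libraries. Ttc8, another BBSome subunit, was at -0.27 (SE 0.17) with all libraries and -0.09 without control library 1.

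The genotypes did not overlap for 7 of the 16 genes in spinal cord, against 14.7% of all genes. For 6 of them SMA was lower (Ift46, Ift74, Ift81, Cluap1, Hspb11 and Arl6; 7.14% of all genes), and for Kifap3 SMA was higher (7.52%). Kifap3 gave 175, 178 and 186 CPM in control and 190, 194 and 200 in SMA libraries, where the log2 fold change was 0.11 (SE 0.07). Together the 16 genes took 0.164% to 0.169% of all counts in control and 0.152% to 0.160% in SMA spinal cord libraries, with no overlap. In brain these shares overlapped, at 0.144% to 0.155% in control and 0.143% to 0.153% in SMA.

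Leaving out 1 library moved the count past the thresholds more than the count of lower genes. Without control spinal cord library 1, 12 of the 16 genes were still lower, but the median was -0.11 and Hspb11 alone passed the thresholds. Wdr35 then turned to 0.03. Over all genes, the spinal cord log2 fold change rose with counts per base of gene (Spearman's rho 0.329 across genes, as a description). After loess offsets removed this dependence from each library, 14 genes were lower, the median was -0.17, and Hspb11 was again the gene that passed. Kif3a, which has the highest counts per base of the 16, turned from 0.08 to -0.10 under that correction. Nes, a gene of neural progenitors, passed the pathway thresholds as lower in SMA in both tissues, at -0.33 in brain and -0.41 in spinal cord. Fabp7, of radial glia, was at 0.17 and 0.32, and Slc1a3, also of radial glia, at -0.05 and 0.24, and neither passed. The 4 dividing cell genes had negative values in both tissues, from -0.23 to -0.14 in brain and from -1.27 to -0.50 in spinal cord, and none passed the thresholds. Their summed CPM was 400.2, 427 and 375 in control and 339.8, 374 and 330.5 in SMA brain, with no overlap. In spinal cord it was 274, 69.9 and 87.7 in control and 97.0, 54.96 and 70.5 in SMA, where the groups overlapped. The part of cell composition in these results was not tested, and none of the 12 listed genes of multiciliated and choroid plexus cells was followed here. Of 9 listed neuronal genes, Map2 (0.09 and 0.12) and Elavl3 (0.17 and 0.17) were followed in brain and spinal cord and neither passed. Apob, a gene of liver and yolk sac, reached 911 CPM in SMA spinal cord library 1 and 294 in control spinal cord library 3, against at most 21.3 in the other spinal cord libraries.

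**Figure D2:**
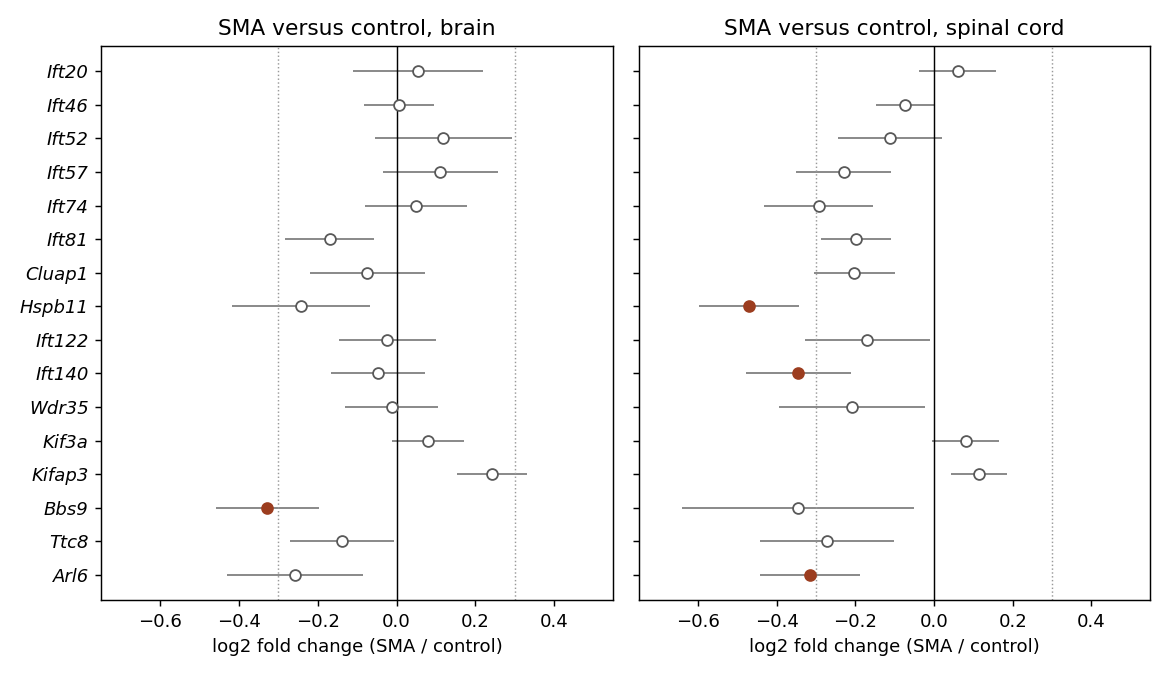
Log2 fold change of SMA over control for the 16 genes in brain (left) and spinal cord (right), with bars of 1 SE from edgeR. Filled points passed the pathway thresholds and dotted lines mark log2 fold changes of -0.3 and 0.3. In spinal cord 13 points lie left of 0, in brain 9.

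In brain, the 16 genes were split between the directions. SMA was lower for 9 genes, with a median log2 fold change of -0.02 (all genes, 0.00, of which 49.1% were lower). Bbs9 was the single gene past the pathway thresholds, against 3.76% of all genes and 2.57% called as lower. Kifap3 and Bbs9 had an unadjusted p below 0.05, against 5.05% of all genes. These were also the 2 genes whose genotypes did not overlap, against 11.0% of all genes (4.82% higher, 6.22% lower in SMA). No gene of the table had an adjusted p below 0.05, and the smallest among the 16 was 0.902. Leaving out a library gave between 6 lower genes (without control library 1) and 13 (without SMA library 2, median -0.10).

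Bbs9 (ENSMUSG00000035919, chr9:22475559-22888283) gave 71.6, 58.2 and 59.96 CPM in control brain (63.3 ± 7.26) and 57.4, 47.8 and 47.1 in SMA brain (50.7 ± 5.75). The highest SMA library was just under the lowest control library. The log2 fold change was -0.33 (SE 0.13, edgeR adjusted p = 0.902), and the call was lost when control library 1 (-0.22), SMA library 2 (-0.28) or SMA library 3 (-0.28) was left out.
Kifap3 (ENSMUSG00000026585, chr1:163762138-163917107) gave 138, 129 and 133 CPM in control brain (133 ± 4.34) and 154, 157 and 163 in SMA brain (158 ± 4.62). All SMA libraries were above all control libraries, as they were in spinal cord. The log2 fold change of 0.24 (SE 0.09, edgeR adjusted p = 0.902) was under the size the thresholds ask for, and stayed between 0.22 and 0.27 with any library left out.
Ift81, with the next smallest p in brain, gave 74.1, 71.9 and 64.0 CPM in control and 59.0, 66.0 and 61.9 in SMA brain. Its groups overlapped at 1 library each, with a log2 fold change of -0.17 (SE 0.11).

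Genes called in spinal cord were not called in brain. Hspb11 gave 18.0, 17.8 and 19.3 CPM in control and 11.96, 18.0 and 15.97 in SMA brain, a log2 fold change of -0.24 (SE 0.18). Arl6 gave 29.9, 30.7 and 24.1 in control and 22.02, 29.0 and 19.3 in SMA brain (-0.26, SE 0.17), and it passed the thresholds without SMA library 2 (-0.46). Both overlapped between genotypes in brain. Ift140 was at -0.05 (SE 0.12). By role, brain medians were 0.03 for IFT-B, -0.02 for IFT-A, 0.16 for the motor genes and -0.26 for Bbs9, Ttc8 and Arl6.

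**Figure D3:**
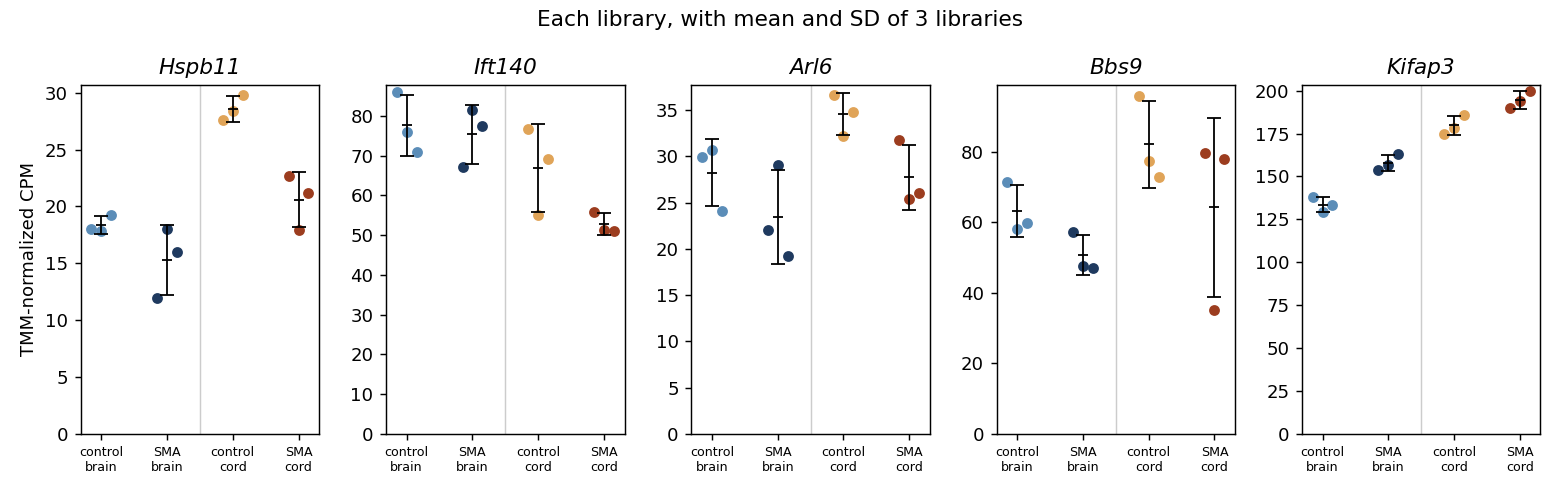
Normalized CPM of 5 genes in each library, with axes that start at 0. Points are libraries 1, 2 and 3 from left to right and bars are the mean and SD of 3 libraries; values of the tissues were normalized separately. SMA libraries of Hspb11 and Arl6 lie under the control libraries in spinal cord, those of Bbs9 in brain, and those of Kifap3 lie above them in both tissues.

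Whether the SMA difference itself depended on tissue was asked of an interaction term fitted to the 12 libraries together. None of the 16 genes had an unadjusted p below 0.05 with edgeR, against 2.38% of all genes, and DESeq2 gave 0 as well. The spinal cord value was the lower for 12 of the 16 genes, with a median difference of -0.10 on the log2 scale (all genes 0.03, of which 44.4% were below 0). Ift74 had the smallest p, at a difference of -0.31 (edgeR adjusted p = 1). A difference between the tissues was therefore not shown for any single gene, including Hspb11.

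**Figure D4:**
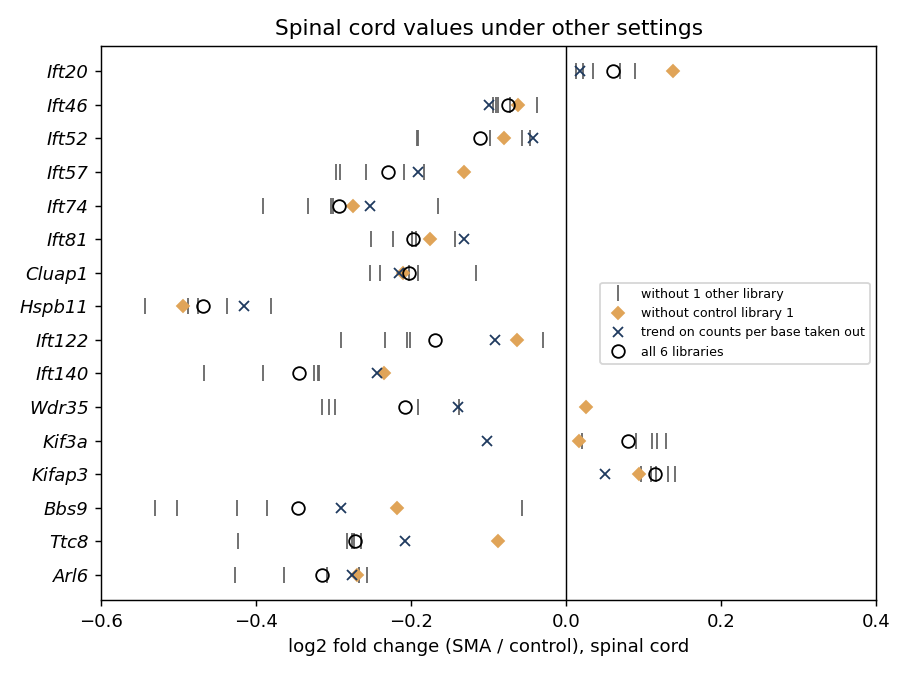
Log2 fold change of SMA over control in spinal cord for the 16 genes with all 6 libraries (open circles), without control library 1 (diamonds), without each other library in turn (ticks), and after loess offsets removed the dependence on counts per base (crosses). Hspb11 stays at or below -0.38 throughout, and Bbs9 moves to -0.06 without SMA library 2.

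Between tissues, control spinal cord had more footprints than control brain on Hspb11, Kifap3 and Ift20, a subunit of IFT-B that also sits at the Golgi apparatus. These 3 of 16 genes passed an adjusted p below 0.05, against 38.4% of all genes (20.4% higher in spinal cord, 18.1% lower). The median log2 difference of spinal cord over brain was 0.20 for the 16 genes and 0.01 for all genes. On the scale normalized over all 12 libraries, Hspb11 gave 18.6, 18.1 and 19.5 CPM in control brain and 26.9, 27.9 and 29.4 in control spinal cord, with no overlap. Its log2 difference was 0.59 (SE 0.12, edgeR adjusted p = 0.00617). Kifap3 gave 143, 131 and 135 CPM in brain and 170, 175 and 183 in spinal cord, a difference of 0.38 (SE 0.08, edgeR adjusted p = 0.00881). Ift20 gave 43.2, 37.4 and 45.6 in brain and 58.6, 49.9 and 51.6 in spinal cord, a difference of 0.36 (SE 0.12, edgeR adjusted p = 0.0476). All 3 genes were higher in every spinal cord library than in any brain library. Ift20 did not pass with any 1 of the 6 libraries left out (0.28 to 0.42), while Hspb11 and Kifap3 passed each time. In all, the tissues did not overlap for 7 of the 16 genes, against 54.0% of all genes.

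In SMA embryos, 4 of the 16 genes passed between tissues, against 36.7% of all genes (19.5% higher in spinal cord, 17.2% lower). Kifap3 was again higher in spinal cord, at 155, 158 and 165 CPM in SMA brain and 187, 191 and 199 in SMA spinal cord (0.28, SE 0.08, edgeR adjusted p = 0.0251). Ift140 was lower, at 67.5, 82.2 and 78.4 CPM in brain and 55.2, 50.5 and 50.7 in spinal cord (-0.54, SE 0.11, edgeR adjusted p = 0.00640). Neither gene overlapped between the tissues. Ift74 was lower as well, at 54.95, 46.8 and 47.1 CPM in brain and 36.0, 27.6 and 39.1 in spinal cord (-0.52, SE 0.15, edgeR adjusted p = 0.0287). Ift46, a core IFT-B subunit, was at 237, 240 and 226 CPM in brain and 180, 194 and 197 in spinal cord (-0.29, SE 0.08, edgeR adjusted p = 0.0212). Spinal cord libraries of both were under all brain libraries. Without SMA brain library 1 or 2 the count of 4 became 1, that of Ift140, and without SMA spinal cord library 3 it became 2, so that Kifap3 and Ift46 rested on each of these 3 libraries, and Ift74 on each SMA brain library. The tissues did not overlap for 5 of the 16 genes, against 51.8% of all genes.

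In the main fit Kifap3 was the 1 gene called in both genotypes, which share no library, and 12 of the 16 genes had the same sign in both. The genes called in both genotypes depended on the setting. They were Ift46 and Kifap3 with DESeq2, and Ift46 alone with a replicate block or with upper-quartile factors in place of TMM. With the dependence on counts per base removed, they were Ift140, Kif3a and Kifap3. Hspb11 in SMA embryos was at 0.40 (SE 0.19, edgeR adjusted p = 0.133). Ift140 in control embryos was at -0.26, Ift74 at -0.20 and Ift46 at -0.24, below 0 as in SMA but not called. The interaction above is the test of these differences, and it found none at an unadjusted p below 0.05.

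**Figure D5:**
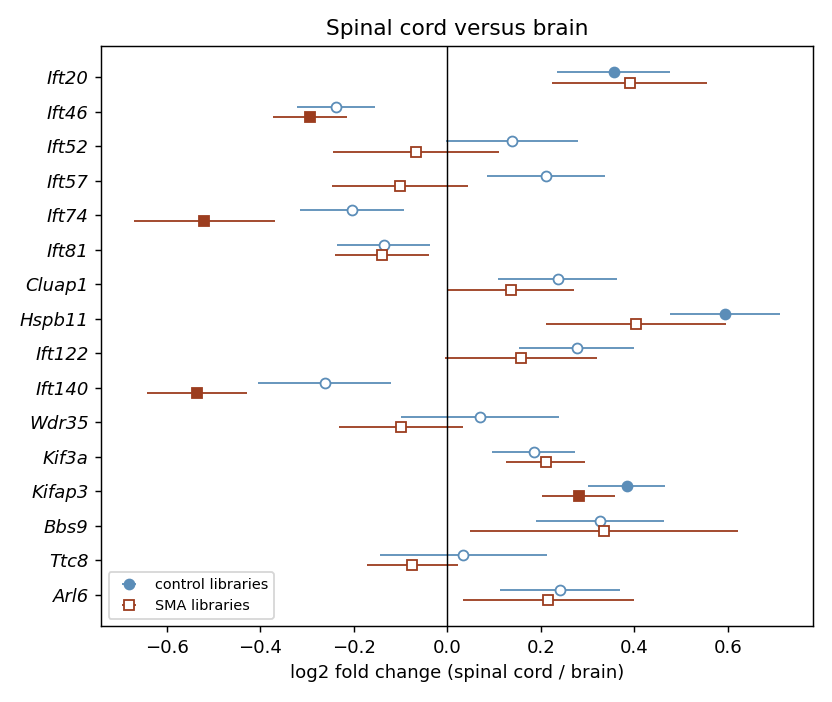
Log2 fold change of spinal cord over brain for the 16 genes in control (circles) and SMA libraries (squares), with bars of 1 SE from edgeR. Filled symbols have an adjusted p below 0.05. Kifap3 is filled in both genotypes; Hspb11 and Ift20 are filled in control, and Ift46, Ift74 and Ift140 in SMA libraries.

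Of 39 other genes of the pathway on a written list, 9 could be named in the table (Ift22, Ift43, Rabl2, Kif3c, Unc119, Rab8a, Rab11a, Rab23 and Ick). The rest may be in it without a name at hand. In brain, Rab23, a GTPase that restrains Hedgehog signaling, passed the pathway thresholds and was lower in SMA (log2 fold change -0.41, SE 0.16, edgeR adjusted p = 0.902). These thresholds called 3.76% of all genes in brain. Rab23 gave 80.1, 72.3 and 63.7 CPM in control and 42.4, 67.7 and 49.6 in SMA brain, normalized over all 12 libraries, so the groups overlapped. In spinal cord 0 of the 9 passed, and Rab23 was at -0.29 (SE 0.14). Between tissues, Ift43, a subunit of IFT-A, was lower in spinal cord in both genotypes. Its CPM was 58.0, 69.6 and 84.2 in control brain and 33.7, 38.9 and 28.0 in control spinal cord, a log2 difference of -1.06 (SE 0.18, edgeR adjusted p = 0.00308). In SMA libraries the difference was -0.83 (SE 0.16, edgeR adjusted p = 0.00524). The other IFT-A genes, none of them called in control libraries, were at 0.28 (Ift122, SE 0.12), 0.07 (Wdr35, SE 0.17) and -0.26 (Ift140, SE 0.14). Rab8a, a GTPase of vesicle delivery to the cilium, was lower in spinal cord in SMA libraries (-0.35, SE 0.10, edgeR adjusted p = 0.0242).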

How the data were processed

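Ribosome footprints of E14.5 brain and spinal cord were analysed in 12 libraries, 3 for each genotype and tissue. The authors trimmed reads (cutadapt 4.1), removed rRNA and tRNA reads, aligned the rest with STAR 2.5.3a to GRCm38.p6 with at most 5 alignments a read and left out genes under an FPKM threshold, and deposited footprint counts per gene that are not normalized. Whether these counts precede the removal of reads at the same position, and the counting tool, are not given in the sources used here. Per the file headers a length is given for each gene, which per the study's methods joins all its exons.

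Counts were tested in R 4.3.3 with edgeR 4.0.16 (TMM, quasi-likelihood test, 2-sided, each tissue on its own, all 10481 genes) and adjusted by Benjamini-Hochberg over all genes. The SE of a log2 fold change comes from its size and the F statistic (their quotient after taking the root of F). CPM within a tissue uses the factors of its 6 libraries, and levels per kilobase and values between tissues use those of all 12. Means carry the SD of 3 libraries. With 3 libraries against 3, an exact permutation test cannot go below 0.1. Chi-squares per gene between libraries of a group were 3.85 to 23.1, so each counted once. On simulated counts of 10481 genes, 200 genes were changed 2-fold, drawn only from those above a floor of mean CPM. The pathway thresholds recovered 98.5% of them in brain and 93.0% in spinal cord. An adjusted p below 0.05 recovered 92% in brain and 63% in spinal cord, and also called 24 and 12 unaltered genes. Recovery at smaller sizes, such as the log2 fold change of -0.47 of Hspb11 in spinal cord, was not tested. Alternatives used other settings of edgeR and DESeq2 1.42.0, and figures matplotlib 3.10.9.

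Members and gene lists were chosen with earlier results of these data known. Values in every library are given for members past the thresholds, for the 3 smallest p in each SMA comparison, for the genes called between tissues, for the highest and lowest levels and for Arl6. Ift43, Ift74 and Ift46 were added after their values were seen. Of the 16 gene names, 6 were also found in the study's gene list, and the other 10 rest on the identifiers of the member list. Of the listed markers, 2 of 9 spinal cord, 4 of 10 dividing cell, 3 of 8 radial glia, 2 of 9 neuronal, 2 of 8 liver and yolk sac, 0 of 12 multiciliated and 0 of 8 blood genes could be followed. Markers and other pathway genes were found only through the study's gene list, which names 1999 of the 10481 genes. A listed gene that was not followed may therefore still have counts, and its absence here says nothing about its level. A further list is not reported here.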

Additional observations from a re-analysis of the deposited data

How the results depend on the processing

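Lower occupancy of Hspb11 in SMA spinal cord passed the pathway thresholds in every alternative run except the larger fold of 0.5. No value of a named gene changed sign among those called. In brain, the count of 1 gene became 0 at a fold of 0.5, 2 at any fold, 0 with the dependence on counts per base removed and 0 in a single fit of all 12 libraries, and lay between 0 and 1 with any library left out. In spinal cord, the count of 3 became 0 at a fold of 0.5 and 1 with the dependence on counts per base removed, and lay between 1 and 3 with any library left out (1 without control library 1 or SMA library 2). Between control tissues the count of 3 became 5 with that dependence removed and 2 to 3 with any library left out. DESeq2 also called 3, with Ift46 (lower) in place of Ift20. Between SMA tissues the count of 4 lay between 1 and 5 with any library left out. The interaction count of 0 lay between 0 and 1, with Ift57 called without SMA brain library 1, Ift140 without control spinal cord library 2 and Ift74 without SMA spinal cord library 3. The median level of Bbs9, Ttc8 and Arl6 in SMA spinal cord, 10.2 CPM per kilobase, lay between 10.04 and 12.5 with any library left out, 12.5 without library 2, an alternative chosen after seeing the data. The causes were not tested.

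Libraries with the same number did not deviate together in every pair (correlations of -0.17, 0.02 and 0.05 in brain, and 0.26, 0.69 and -0.43 in spinal cord). Between brain and spinal cord all 6 such correlations were above 0. They were 0.14, 0.02 and 0.15 in control and 0.32, 0.09 and 0.14 in SMA. Unlike numbers gave -0.16 to 0.03 in control and -0.25 to 0.19 in SMA. The study collected both tissues from control and SMA embryos, so brain and spinal cord libraries may share embryos. Not every same-number pair exceeded 0.1, and the labels do not tie a number to an embryo. Whether the numbers pair the tissues was therefore not settled. The main fits took all libraries as independent, so p-values between tissues and of the interaction do not allow for shared embryos. With a replicate block, Kifap3 was not called between SMA tissues (0.28, edgeR adjusted p = 0.0549) and Ift46 took its place as the gene called in both genotypes. With that block the counts were 1 in brain, 3 in spinal cord, 5 between control tissues, 3 between SMA tissues and 0 for the interaction, and over all genes in spinal cord 744 passed instead of 439. Leaving out a library moved that last count between 231 and 980, and DESeq2 moved the brain count over all genes from 394 to 220. The planned levels per coding length were not run. Counts of Hspb11 were as low as 44 in a brain library.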
